A study of Mus musculus with 28 samples.

Results

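Paradoxical sleep deprivation (PSD) followed by restraint was compared with undisturbed housing in the pituitaries of male mice. The comparison took in 7 of the 28 mice of the study, 3 males of the PSD + restraint group and 4 home cage control males, chosen by treatment and sex as labelled and described across every gene. All were C57BL/6J mice aged 8 weeks, and each label is a separate animal. PSD + restraint males were kept on platforms over water for 12 h, which interrupts rapid eye movement sleep, were later held in plastic restrainers for 20 min, and were killed 10 min after release, 18 h after PSD had ended. Home cage controls had neither procedure on the test days, but they had been adapted to the PSD tanks beforehand, as the treated mice had. PSD was given in groups of cage mates, and which mice shared a tank is not given by the labels. The other males were 3 given PSD alone and 2 given restraint alone. They shared the estimate of the spread, and they serve below to place the combined group. RNA of the whole gland was sequenced, so that a change in the number of cells of a type and a change in RNA per cell cannot be told apart.

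The pituitary is the middle tier of the hypothalamic-pituitary-adrenal axis. Hypothalamic corticotropin-releasing hormone and vasopressin reach corticotropes, raise cyclic AMP and calcium, and set off release of the POMC product ACTH, and adrenal corticosterone then feeds back on the same cells. Within minutes of such a stimulus cells transcribe immediate early genes without new protein synthesis, among them the NR4A nuclear receptors and the AP-1 and EGR transcription factors, and soon after these the phosphatases and other inhibitors that end the signal.

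The 7 libraries held 16452347 to 45849598 counted reads. Counts of same-group males differed beyond sampling noise in each of 13 pairs (chi-square of at least 7.48 per degree of freedom), and sex-linked genes matched the labelled sex in 28 of 28 mice. Control mouse 1 stood apart. Its mean log2 CPM over 6 genes of the neurointermediate lobe, the posterior part of the gland that is dissected with it, was 1.17, against 4.06 to 4.33 in the other controls and 3.87 to 4.95 after PSD + restraint. Within the PSD + restraint group, mouse 2 carried most of the neutrophil RNA: 4 neutrophil genes summed to 4.81 to 10.8 CPM in controls and 2.67 to 93.1 CPM after PSD + restraint. Levels are CPM, read counts relative to library size after TMM scaling. Genes were called at an adjusted p of at most 0.05 in edgeR's quasi-likelihood test if the change was also 0.32 or more on the log2 scale.

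PSD + restraint changed 467 of 18271 genes tested in males (2.56%). Of these, 351 rose (1.92%) and 116 fell (0.635%), with a median log2 fold change of 0.84 among those that rose and -0.46 among those that fell, against -0.01 over all genes. Of the genes that rose, 141 at least doubled (1 or more on the log2 scale), while 6 of those that fell at least halved. The 3 treated and 4 control males did not overlap for 460 of the 467 genes. Over all genes tested, the treated males lay wholly above the controls for 6.97% and wholly below them for 8.13%. An unadjusted p under 0.05 was found for 3181 genes (17.4%). The count depended on single mice. It was 162 without PSD + restraint mouse 1, 164 without mouse 2, 204 without control mouse 3 and 280 without control mouse 4, while it was 528 without control mouse 1. With each of the 7 mice left out in turn, 121 genes were called every time (109 higher, 12 lower), and 82 (75 higher, 7 lower) were called under all 18 alternative settings. A gene that a setting did not test counts as not called there. Of the 467, 384 were tested with a filter on mean TPM and 425 with one of 10 counts in every mouse. Fam212b, called in all 17 settings that tested it, is therefore not among the 82.

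**Figure D1:**
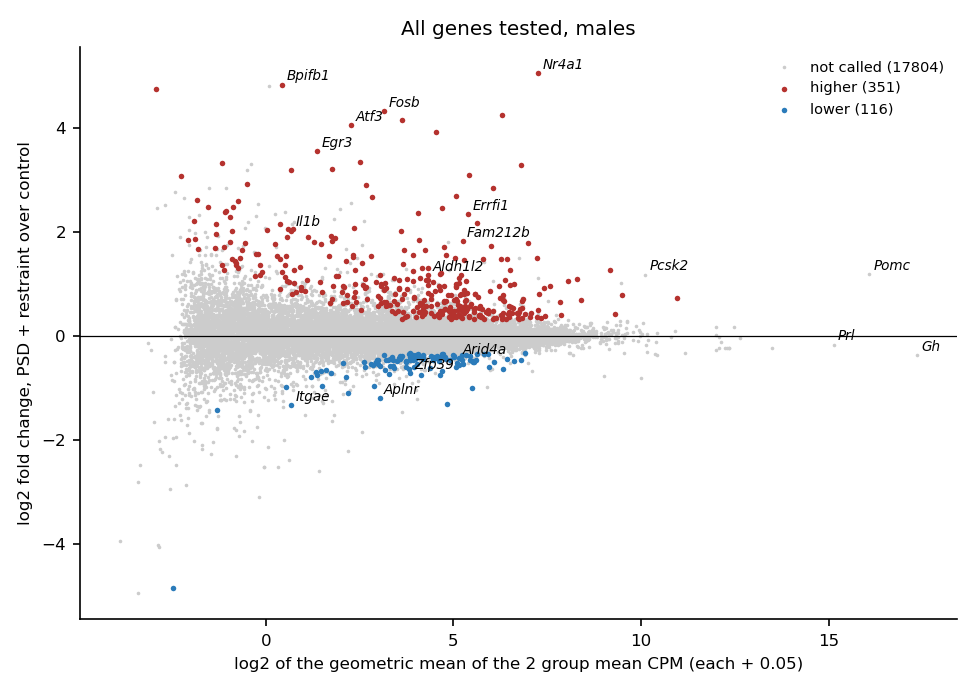
Log2 fold change of PSD + restraint over control males (vertical axis) against average expression (horizontal axis) for each of 18271 genes tested. Red points are the 351 genes called higher, blue the 116 called lower and grey the rest; Nr4a1 stands highest among abundant genes (5.07), and Pomc and Pcsk2 lie above 1 without being called.

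The early transcription factors rose. All 3 NR4A receptors, 5 of 11 AP-1 factors and 5 of 7 EGR genes with their NAB corepressors and SRF were called higher, and none was called lower. The list medians of log2 fold change were 4.26, 1.81 and 1.24. Nr4a1 (chr15:101254269-101274795 in mm10), an orphan receptor that drives Pomc transcription in corticotropes, was at 49, 21.8, 21.1 and 13.6 CPM in control mice 1 to 4. In PSD + restraint mice 1 to 3 it was at 799, 1045 and 815 CPM (log2 fold change 5.07 ± 0.53 (SE), adjusted p = 5.11e-04). The lowest treated male was thus far above the highest control. Its relatives followed, Nr4a2 with log2 fold change 4.26 ± 0.52 (SE), adjusted p = 0.00122 and Nr4a3 with log2 fold change 4.16 ± 0.70 (SE), adjusted p = 0.00833, and control mouse 1 was the highest control for all 3.

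Among AP-1 factors, which pair FOS with JUN or ATF proteins, Fosb was at 2.74, 0.862, 1.28 and 2.81 CPM in the controls and 32.3, 59.1 and 28.4 CPM in the treated males (log2 fold change 4.34 ± 0.49 (SE), adjusted p = 8.12e-04). Atf3, a stress-induced member, went from 1.27, 1.25, 0.675 and 1.39 CPM to 16.9, 28.9 and 12.5 CPM (log2 fold change 4.06 ± 0.37 (SE), adjusted p = 1.50e-04). Neither gene overlapped between the groups, as for 460 of the 467 genes called. Junb (log2 fold change 2.85, adjusted p = 0.00256) and Fosl2 (3.29, adjusted p = 0.0096) also rose, and Fosl1 was called at under 1 CPM. Fos itself was not called. Its controls were at 10.5, 27.1, 11.8 and 11.7 CPM and its treated males at 25.3, 24.9 and 114 CPM (log2 fold change 1.82 ± 0.74 (SE), adjusted p = 0.23), so that the groups overlapped and treated mouse 3 alone stood far out. Jun was at a mean of 15.6 CPM in controls and 17 CPM after treatment (log2 fold change 0.13 ± 0.13 (SE), adjusted p = 0.65).

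Egr3, a zinc finger factor induced by calcium and MAP kinase signals, was at 0.531, 0.974, 0.604 and 0.792 CPM in controls and 8.06, 12 and 5.46 CPM after PSD + restraint (log2 fold change 3.57 ± 0.32 (SE), adjusted p = 1.44e-04). Egr4 and Egr1 rose by log2 fold changes of 3.20 and 3.10 (adjusted p = 0.00473 and 0.0138). Nab2, which binds EGR proteins and represses their targets, rose by 0.81 (adjusted p = 0.0143), a call lost without PSD + restraint mouse 1 (adjusted p 0.0539). DESeq2 did not call Nr4a3 or Egr1. Of 27 other early response genes, 11 rose and none fell. Npas4, a neuronal activity factor, went from a mean of 7.24 ± 1.3 to 37.5 ± 8.87 CPM (SD, n = 4 and 3; log2 fold change 2.37 ± 0.23 (SE), adjusted p = 2.91e-04). Arc, a regulator of synaptic receptors, rose with log2 fold change 1.66 ± 0.22 (SE), adjusted p = 0.00221, Ier3 with log2 fold change 1.56 ± 0.17 (SE), adjusted p = 5.12e-04, and Ctgf, a matricellular growth factor, with log2 fold change 0.99 ± 0.13 (SE), adjusted p = 0.00194. The early response list gave 5 to 9 called with each mouse left out in turn, 7 without PSD + restraint mouse 1, 5 without PSD + restraint mouse 2, 6 without control mouse 2, 5 without control mouse 3, 6 without control mouse 4, and the EGR list 3 to 6 called with each mouse left out in turn, 3 without PSD + restraint mouse 1.

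**Figure D2:**
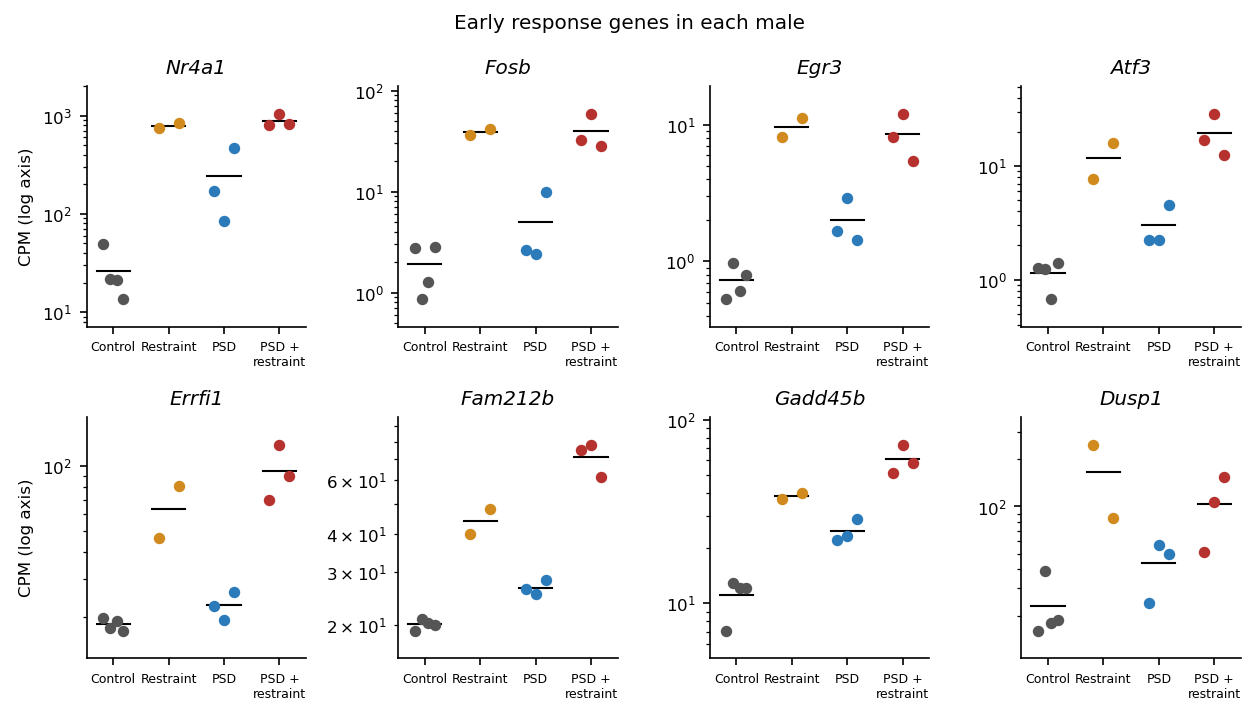
CPM on log axes of 8 early response genes in the 12 males, 1 point per mouse, with the group mean as a bar (control n = 4, restraint n = 2, PSD n = 3, PSD + restraint n = 3). For all 8 genes the PSD + restraint males lie above every control, and for Errfi1 the PSD males (19.3 to 26.3 CPM) lie close to the controls (17.4 to 19.7 CPM).

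The smallest p-value over all genes was that of Fam212b, an inhibitor of the kinase PAK4, which was at 19.2, 21, 20.3 and 20.1 CPM in controls and 75.3, 77.9 and 61.5 CPM in the treated males (log2 fold change 1.84 ± 0.09 (SE), adjusted p = 4.51e-07). The 4 controls lay within 2 CPM of one another. Gadd45b, a stress sensor of the GADD45 family, was at 7.09, 12.9, 12.1 and 12 CPM against 51.4, 72.6 and 58.3 CPM (log2 fold change 2.47 ± 0.18 (SE), adjusted p = 4.21e-05). Odc1, the rate-limiting enzyme of polyamine synthesis, was abundant at 168, 180.1, 178 and 217 CPM in controls and rose to 427, 376 and 351 CPM (log2 fold change 1.06 ± 0.09 (SE), adjusted p = 1.17e-04). Fam46a, a poly(A) polymerase family member, rose by 1.51 and B3galt2, a glycosyltransferase, by 2.02 on the log2 scale (adjusted p = 1.17e-04 and 1.44e-04). The calls of these 5 genes held in each alternative that tested them.

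Inhibitors of the signal rose alongside. Of 17 inhibitors of MAP kinase signalling, 8 were called higher and none lower (median log2 fold change 0.59). Errfi1 (chr4:150853919-150868892), which blocks the EGF receptor, was at 19.7, 17.9, 19.3 and 17.4 CPM in controls and 69.8, 125 and 89.7 CPM after treatment (log2 fold change 2.36 ± 0.20 (SE), adjusted p = 1.17e-04). Dusp14 and Dusp5, phosphatases that switch off MAP kinases, rose by 1.74 and 1.78 (adjusted p = 8.17e-04 and 0.00146). Dusp1, a phosphatase that glucocorticoids also induce, was at 16.1, 38.9, 18 and 18.9 CPM and 51.6, 107 and 155 CPM (log2 fold change 2.18 ± 0.45 (SE), adjusted p = 0.0228); its lowest treated male was above its highest control, mouse 2. The list gave 3 to 9 called with each mouse left out in turn, 4 without PSD + restraint mouse 1, 3 without PSD + restraint mouse 2, 5 without control mouse 3, 4 without control mouse 4. In the cyclic AMP pathway 5 of 25 genes rose and none fell. Gem, a small GTPase that limits calcium channels, went from 9.51, 6.32, 3.59 and 4.11 CPM to 76.5, 119.9 and 76 CPM (log2 fold change 3.93 ± 0.41 (SE), adjusted p = 5.11e-04). Crem, whose short product ICER represses cyclic AMP-induced genes, rose by 1.48 (adjusted p = 0.00338), Sik1, a kinase that restrains CREB coactivators, by 2.70 (adjusted p = 0.00833), and Pde4b, which degrades cyclic AMP, by 0.79 (adjusted p = 0.00428).

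CREB binds the palindrome TGACGTCA, the cyclic AMP response element. The 250 bases before the start of each gene in RefSeq (GRCm38.p6, the assembly of mm10) were searched on both strands for 7 motifs; 240 of the 351 genes that rose, 81 of the 116 that fell and 12919 of all 18271 tested had such a sequence. TGACGTCA stood before 21 of the genes that rose (8.75%), 2 of those that fell (2.47%) and 2.84% of all tested, and in 1.77% of all promoters of the table. Its half-site TGACG, which every full element also contains, stood before 45.8%, 18.5% and 28.1%, and in 19.8% of all promoters. The other motifs were the E-box CACGTG (10.4% of the genes that rose, 9.34% of those tested, 6.86% of all promoters), the AP-1 site TGANTCA (7.92%, 5.9% and 7.82%), the NR4A element AAAGGTCA (0.417%, 1.22% and 1.55%), the amino acid response element TGATGNAAT (1.25%, 0.596% and 0.91%) and the palindromic glucocorticoid response element, AGAACA and its inverse 3 bases apart (0%, 0.00774% and 0.0111%). These shares describe letters only, and binding was not measured. The stretches below are shown because they hold the full palindrome, in capitals, before genes named here or close relatives; each runs 5′ to 3′ on the strand of its gene.
Errfi1, chr4:150854973-150855069, plus strand: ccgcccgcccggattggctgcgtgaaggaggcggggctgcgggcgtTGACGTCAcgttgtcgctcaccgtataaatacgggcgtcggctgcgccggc
Dusp1, chr17:26508562-26508661, minus strand: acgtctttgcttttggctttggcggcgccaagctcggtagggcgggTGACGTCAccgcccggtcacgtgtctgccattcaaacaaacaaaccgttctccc
Dusp8, chr7:142095338-142095437, minus strand: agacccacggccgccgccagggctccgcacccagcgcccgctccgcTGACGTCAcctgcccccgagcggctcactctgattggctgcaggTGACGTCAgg
Slc25a25, chr2:32424163-32424262, minus strand: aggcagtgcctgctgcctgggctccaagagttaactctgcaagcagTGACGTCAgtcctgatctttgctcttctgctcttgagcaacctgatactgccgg
Maff, chr15:79347445-79347519, plus strand: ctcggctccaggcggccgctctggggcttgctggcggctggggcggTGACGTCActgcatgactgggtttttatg
Pcsk1, chr13:75089733-75089832, plus strand: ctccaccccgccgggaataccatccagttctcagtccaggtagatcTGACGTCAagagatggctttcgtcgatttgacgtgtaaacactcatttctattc
Starts are those of RefSeq, and that of Errfi1 lies inside the longer GENCODE span given above. The element began 51 bases before the RefSeq start of Errfi1 and 143 bases before that of Dusp1. Dusp8, a further MAP kinase phosphatase (log2 fold change 1.19), held it at 2 places, 107 and 63 bases before the start. Slc25a25, a mitochondrial ATP carrier, rose by 1.48 and Maff, a small MAF factor, by 1.84. Pcsk1, the convertase described below with the hormones, held it 78 bases before the start.

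Clock genes and glucocorticoid-responsive genes rose in part. Of 22 clock genes 4 rose and none fell (median 0.21). Per1, which both cyclic AMP and glucocorticoids induce, was at 109, 59.2, 55.8 and 49.1 CPM in controls, with mouse 1 highest, and 249, 280.3 and 183 CPM in treated males (log2 fold change 1.80 ± 0.34 (SE), adjusted p = 0.0168). Nfil3, a repressor of clock output, rose by 1.31 (adjusted p = 0.00575), and Per2 went from 33.9, 42.7, 37 and 29.8 CPM to 56.2, 52.6 and 50.5 CPM (log2 fold change 0.57 ± 0.10 (SE), adjusted p = 0.0105). The core activators Clock and Arntl were at log2 fold changes of -0.01 and -0.07 (adjusted p = 0.98 and 0.84). Calls were lost for Per1 without PSD + restraint mouse 1 or 2 or control mouse 3 or 4 (adjusted p 0.0516 to 0.0772) and for Per2 without PSD + restraint mouse 1 (adjusted p 0.0622).

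Of 22 genes listed as glucocorticoid receptors and targets 8 rose and none fell (median 0.19). Log2 fold changes were positive for 15 and negative for 7, the latter including Zbtb16 at -0.64 (adjusted p = 0.0772). This list shares Per1, Dusp1, Errfi1 and the early factor Cebpd with the groups above. The list also counts Gper1, although it is a membrane oestrogen receptor. Gper1 was at 26.4, 32.9, 32.8 and 32.1 CPM and 52, 48.4 and 48.6 CPM (log2 fold change 0.68 ± 0.08 (SE), adjusted p = 0.00122). Cebpd and Ddit4 rose by 0.78 and 0.38 (adjusted p = 0.0194 and 0.0262). Lcn2, described below, and Nfkbia, the inhibitor of NF-kB (0.46, adjusted p = 0.0469), were the other members called, and the Nfkbia call was lost without PSD + restraint mouse 2 or 3 or control mouse 1, 2, 3 or 4 (adjusted p 0.0701 to 0.13). Fkbp5, a co-chaperone of the glucocorticoid receptor, was at 86.2, 94.4, 88.8 and 94.2 CPM in controls and 73, 76.6 and 87.6 CPM after treatment (log2 fold change -0.20 ± 0.07 (SE), adjusted p = 0.19). Tsc22d3, which encodes the anti-inflammatory protein GILZ, was at 61.9, 54.8, 51.9 and 57.5 CPM and 68.7, 74.3 and 65.9 CPM (log2 fold change 0.30 ± 0.08 (SE), adjusted p = 0.0638), Sgk1 was at -0.21 on the log2 scale (adjusted p = 0.5), and the receptors Nr3c1 and Nr3c2 had 0.07 and -0.02 (adjusted p = 0.9 and 0.96). The list gave 3 to 8 called with each mouse left out in turn, 5 without PSD + restraint mouse 1, 3 without PSD + restraint mouse 2, 5 without PSD + restraint mouse 3, 3 without control mouse 3, 5 without control mouse 4.

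The POMC machinery showed 1 call among 14 genes of corticotropes and melanotropes, beside a share of 2.56% over all genes tested. Pomc (chr12:3954951-3960642), the precursor of ACTH in the anterior lobe and of melanocyte-stimulating hormone in the intermediate lobe, was at 11423, 58418, 49603 and 63528 CPM in controls 1 to 4. The treated males were at 126166, 121038 and 66216 CPM (log2 fold change 1.19 ± 0.43 (SE), adjusted p = 0.17). The treated males all lay above the controls, but treated mouse 3 lay just above control mouse 4, and the change was not called. Without control mouse 1 the log2 fold change of Pomc was 0.87, and with the neurointermediate score as a covariate 0.58. Pcsk2, the convertase of melanotropes, followed Pomc, at 222, 907, 780.1 and 1026 CPM and 1982, 1901 and 1107 CPM (log2 fold change 1.18 ± 0.39 (SE), adjusted p = 0.13). The 3 intermediate lobe genes summed to 377 to 1726 CPM in controls and 1789 to 3309 CPM after PSD + restraint, and the 11 posterior lobe and pituicyte genes to 92.7 to 137 CPM in controls and 99.8 to 183 CPM after PSD + restraint. None of these 14 was called.

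Pcsk1, the convertase that cuts POMC to ACTH in corticotropes, was called. It was at 241, 188, 187 and 201 CPM in controls and 264, 257 and 283 CPM in treated males (log2 fold change 0.40 ± 0.08 (SE), adjusted p = 0.0208), and here control mouse 1 was the highest control. The call was lost without PSD + restraint mouse 1, 2 or 3 or control mouse 2, 3 or 4 (adjusted p 0.0539 to 0.0758). The ACTH-regulating receptors Crhr1 and Avpr1b were at 0.16 and -0.02 on the log2 scale (adjusted p = 0.48 and 0.98), and the corticotrope factor Tbx19 at 0.27 (adjusted p = 0.54). Crhbp, which sequesters corticotropin-releasing hormone, was at most 0.488 CPM in controls and 0.401, 0.58 and 1.24 CPM after treatment (log2 fold change 1.92 ± 0.74 (SE), adjusted p = 0.2). Among the granule proteins, Vgf rose from 7.22, 10.9, 8.34 and 16.1 CPM to 34.3, 42.5 and 22.9 CPM (log2 fold change 1.65 ± 0.25 (SE), adjusted p = 0.00506) and Chga by 0.73 (adjusted p = 0.0336); control mouse 1 was the lowest control for both, and Chga was not called with the neurointermediate score as a covariate. The Chga call was also lost without PSD + restraint mouse 1 or 2 or control mouse 2 or 3 (adjusted p 0.0642 to 0.14).

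**Figure D3:**
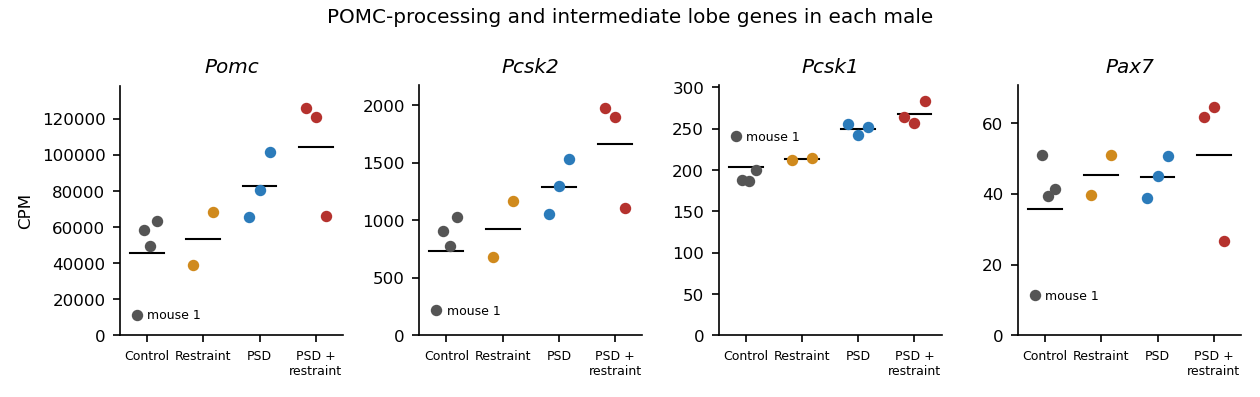
CPM of Pomc, Pcsk2, Pcsk1 and Pax7 in the 12 males, 1 point per mouse on linear axes from 0, with group means as bars and control mouse 1 named. Control mouse 1 is far below the other males for Pomc (11423 CPM), Pcsk2 and Pax7 but the highest control for Pcsk1, and PSD + restraint mouse 3 lies below its group for the same 3 genes.

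The hormones of the other endocrine cells were not called. Gh, growth hormone, was at 212129, 144104, 222045 and 184057 CPM in controls and 122129, 109672 and 212515 CPM after treatment (log2 fold change -0.36 ± 0.24 (SE), adjusted p = 0.47), and the ranges overlapped. Log2 fold changes were -0.16 for Prl (adjusted p = 0.44), 0.16 for Lhb (adjusted p = 0.44), 0.01 for Fshb (adjusted p = 0.98), 0.21 for Tshb (adjusted p = 0.7) and -0.11 for Cga (adjusted p = 0.68). No gene was called among 11 gonadotrope, 9 thyrotrope and 9 somatotrope genes. Over all genes tested 2.56% were called, so that lists this short can hold no call at that share. The lactotrope list held 1 call of 8, Nmb, a bombesin-like peptide, at 7.54, 7.12, 6.64 and 9.75 CPM and 24.2, 23.3 and 13.1 CPM (log2 fold change 1.39 ± 0.25 (SE), adjusted p = 0.0126), lost without PSD + restraint mouse 1 or 2 (adjusted p 0.0651 to 0.0707). Bdnf, a neurotrophin, was the single call of 8 neurotrophin genes, at 9.89, 12.6, 10.0 and 9.58 CPM in controls and 25.3, 23.3 and 16.4 CPM in treated males (log2 fold change 1.06 ± 0.17 (SE), adjusted p = 0.00686).

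A set of mitochondrial folate and serine genes rose. Of 22 genes of the ATF4 response and serine one-carbon metabolism, 7 were called higher and none lower (median 0.44). Aldh1l2 (chr10:83487450-83534140), which oxidises formyl-tetrahydrofolate in mitochondria, was at 11.8, 12, 13.9 and 15.6 CPM in controls and 26.1, 31.8 and 32 CPM after PSD + restraint (log2 fold change 1.17 ± 0.11 (SE), adjusted p = 2.91e-04). Psat1, an enzyme of serine synthesis, was at 22.6, 23, 18.6 and 24 CPM and 35.7, 38.8 and 30.4 CPM (log2 fold change 0.67 ± 0.11 (SE), adjusted p = 0.00676). The groups were apart for both, as for 460 of the 467 genes called. Mthfd2, another mitochondrial folate enzyme, and Slc3a2, a subunit of amino acid transporters, rose by 0.48 and 0.55 (adjusted p = 0.0173 and 0.0185). Phgdh and Nupr1 rose by 0.47 and 0.57 (adjusted p = 0.0458 and 0.0247). Atf4 itself was at 0.26 on the log2 scale (adjusted p = 0.0846), and Ddit3, the ATF4 target of unfolded protein stress, -0.01 (adjusted p = 0.99). The list gave 2 to 7 called with each mouse left out in turn, 2 without PSD + restraint mouse 2, 2 without control mouse 3. Calls were lost for Mthfd2 without PSD + restraint mouse 2 or control mouse 3 (adjusted p 0.0577 to 0.0756) and for Slc3a2 without PSD + restraint mouse 2 or 3 or control mouse 3 (adjusted p 0.0503 to 0.0658).

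Inflammatory and acute phase genes rose in small numbers. Of 7 acute phase genes 4 rose and none fell (median 0.80). Lcn2, an iron-binding protein, was at 48.7, 53.5, 50.6 and 58.9 CPM in controls and 86.7, 94.8 and 127 CPM in treated males (log2 fold change 0.96 ± 0.14 (SE), adjusted p = 0.00423). Neutrophils also make Lcn2. Their 4 genes summed to 2.67 CPM in treated mouse 3, the mouse highest for Lcn2, and their part in the result was not tested. Clu, a secreted chaperone, rose from 409, 577, 546 and 648 CPM to 1019, 1059.9 and 756 CPM (log2 fold change 0.80 ± 0.17 (SE), adjusted p = 0.0255), and Serpina3n and Cp rose by 1.89 and 0.38 (adjusted p = 0.0261 and 0.0294). The calls were lost for Clu without PSD + restraint mouse 1 or 2 or control mouse 3 (adjusted p 0.0722 to 0.12), for Serpina3n without PSD + restraint mouse 1 or 2 or control mouse 2, 3 or 4 (adjusted p 0.054 to 0.13) and for Cp without PSD + restraint mouse 2 or 3 or control mouse 3 or 4 (adjusted p 0.0697 to 0.0887). Of 26 cytokine and NF-kB genes 4 rose. Il1b was at 0.87, 0.612, 0.888 and 0.672 CPM and 2.59, 3.91 and 2.79 CPM (log2 fold change 2.03 ± 0.25 (SE), adjusted p = 0.00127). Nfkbiz, an inducible coactivator of NF-kB, was at 10.8, 9.26, 9.66 and 9.56 CPM and 18.9, 29.2 and 21.8 CPM (log2 fold change 1.25 ± 0.12 (SE), adjusted p = 3.25e-04), and Cish, a cytokine signalling inhibitor, rose by 0.48 (adjusted p = 0.00338). Il33 was at 0.45 (adjusted p = 0.0704). No gene was called among 17 macrophage and 11 MHC class II genes (medians 0.04 and -0.14), and 1 of 22 interferon-stimulated genes was, Irf7, at 0.59 (adjusted p = 0.0432), lost without PSD + restraint mouse 1 or 3 or control mouse 2, 3 or 4 (adjusted p 0.0815 to 0.12). With 2.56% called over all genes tested, few or no calls in lists of this size lie near that share.

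Of 20 GADD45 genes and apoptosis regulators 5 rose and 1 fell. Those that rose act in both directions on cell death: Mcl1, which opposes it, rose by 0.42 and Bcl2l11, which promotes it, 0.49 (adjusted p = 0.0103 and 0.0161). Trp53inp1, a p53 target, fell by 0.48 on the log2 scale (adjusted p = 0.0408). The list gave 1 to 6 called with each mouse left out in turn, 1 without PSD + restraint mouse 1, 1 without PSD + restraint mouse 2, 3 without control mouse 3, and calls were lost for Mcl1 without PSD + restraint mouse 1 or 2 (adjusted p 0.0577 to 0.0626) and for Bcl2l11 without PSD + restraint mouse 1 or 2 (adjusted p 0.0705 to 0.0887). Of 20 cytosolic heat shock genes 2 rose, the cochaperones Dnajb1 (36.8, 34.8, 38 and 35.7 CPM in controls, 69.7, 60.9 and 58.9 CPM after treatment, adjusted p = 0.0105) and Bag3 (log2 fold change 0.94, adjusted p = 0.0141), lost for Dnajb1 without PSD + restraint mouse 1 (adjusted p 0.0622) and for Bag3 without PSD + restraint mouse 1 or 2 (adjusted p 0.0613 to 0.0751). The share called over all genes tested was 2.56%. Of 22 endoplasmic reticulum folding genes only Derl3 was called (0.62, adjusted p = 0.026), and of 77 oxidative phosphorylation subunits 4 (median 0.06). The last count was 0 without PSD + restraint mouse 1 or 2 or control mouse 2 and 1 without control mouse 3, and the Derl3 call was lost without PSD + restraint mouse 1, 2 or 3 or control mouse 2 or 3 (adjusted p 0.0577 to 0.0992).

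Of 17 endothelial genes none rose and 2 fell (median -0.32). Aplnr (chr2:85136225-85139923), the apelin receptor of growing vessels, was at 10.7, 10.5, 14.2 and 14.3 CPM in controls and 5.59, 6.01 and 4.4 CPM after treatment (log2 fold change -1.20 ± 0.15 (SE), adjusted p = 0.00127). Every treated male was below every control, as for all 116 genes that fell. Sox18, an endothelial transcription factor, fell from 3.52, 3.53, 4.44 and 4.18 CPM to 2.07, 2.43 and 1.36 CPM (log2 fold change -0.97 ± 0.20 (SE), adjusted p = 0.0228), a call lost without PSD + restraint mouse 1 or control mouse 3 or 4 (adjusted p 0.06 to 0.09). Kdr, the receptor for VEGF, was at -0.08 (adjusted p = 0.71), and Pecam1 at -0.43 (adjusted p = 0.0826). Of 10 smooth muscle and pericyte genes 2 rose, the contractile genes Tagln (log2 fold change 0.92 ± 0.14 (SE), adjusted p = 0.00567) and Acta2 (0.92, adjusted p = 0.0351), the latter lost without PSD + restraint mouse 1 or 2 or control mouse 3 (adjusted p 0.1 to 0.14). Hemoglobin and other red cell genes, which follow the blood left in the gland, summed to 1778 to 3225 CPM in controls and 386 to 2357 CPM after PSD + restraint.

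Genes that fell did so by less. After Aplnr, the smallest p-values among them belonged to Arid4a, a chromatin protein, at 40.8, 40.5, 42.5 and 40.6 CPM in controls and 29.3, 31.7 and 30.3 CPM after treatment (log2 fold change -0.43 ± 0.06 (SE), adjusted p = 0.00395), and to Mettl17, a mitochondrial ribosome assembly factor, at 32.1, 30.6, 32.2 and 31 CPM and 24.7, 23.1 and 23.3 CPM (log2 fold change -0.40 ± 0.06 (SE), adjusted p = 0.00421). Neither overlapped between groups, which was part of the rule that named them and held for all 116 genes that fell. Both sets of mice spread little. Cbln1, a synaptic organiser, fell by 0.61 and Zfp39, a zinc finger gene, by 0.72 on the log2 scale (adjusted p = 0.00532 and 0.00558). Parp16, Mirlet7bhg and Exph5 fell by 0.59, 0.78 and 0.59 (adjusted p = 0.00577, 0.00686 and 0.0069). The deepest decreases at 1 CPM or more, beside Aplnr and Sox18, were those of Itgae, an integrin of resident lymphocytes (2.04, 2.42, 2.27 and 2.86 CPM in controls, 0.803, 0.797 and 1.36 CPM after treatment, adjusted p = 0.0228), Chrna6, a nicotinic receptor subunit (-1.31, adjusted p = 0.0352), and Slc6a11, a GABA transporter (79.1, 53.3, 59.5 and 62.5 CPM in controls, 28, 28.7 and 39.3 CPM after treatment, adjusted p = 0.0155). The calls were lost for Itgae without PSD + restraint mouse 1 or 2 or control mouse 3 or 4 (adjusted p 0.0556 to 0.13), for Chrna6 without PSD + restraint mouse 1 or 2 or control mouse 1, 3 or 4 (adjusted p 0.0531 to 0.16) and for Slc6a11 without PSD + restraint mouse 1 or 2 (adjusted p 0.0833 to 0.0855). At the other end, Bpifb1, a mucosal secretory protein, had the second largest increase at 1 CPM or more (log2 fold change 4.85 ± 1.14 (SE), adjusted p = 0.0417), but it rested on 1 mouse. It was at 19, 0.217 and 0.31 CPM in treated mice 1 to 3 against 0.17, 0.362, 0.178 and 0.216 CPM in controls, and without treated mouse 1 it was not called.

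**Figure D4:**
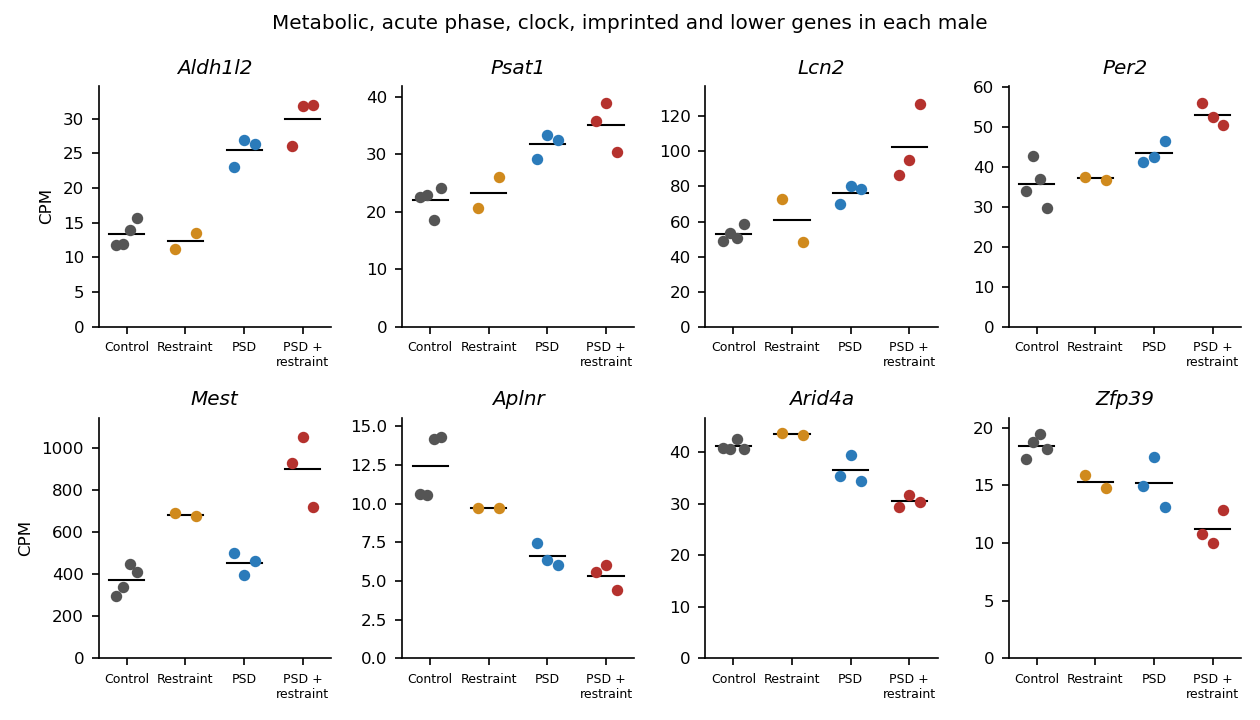
CPM on linear axes from 0 of Aldh1l2, Psat1, Lcn2, Per2, Mest, Aplnr, Arid4a and Zfp39 in the 12 males, 1 point per mouse, with group means as bars. For Aldh1l2 the PSD males lie close to the PSD + restraint males and the restraint males among the controls, while for Mest the restraint males lie nearer the PSD + restraint males.

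No member was called in 20 of the 43 lists described, with the 18271-gene shares of 1.92% higher and 0.635% lower as background. These held 80 cytosolic ribosomal protein genes (median 0.03), 22 genes of cholesterol synthesis and uptake (0.09), 21 ion channel genes (-0.00), 17 proliferation genes (0.18), 16 genes of CLK kinases and splicing factors (-0.07) and 12 collagens (0.12). As for markers of cells outside the endocrine gland, none was called among 6 forebrain neuron, 5 oligodendrocyte, 5 skeletal muscle, 3 bone and cartilage and 3 lymphocyte genes. The 4 neutrophil genes had a median log2 fold change of 2.32, an unadjusted p under 0.05 each and no call.

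**Figure D5:**
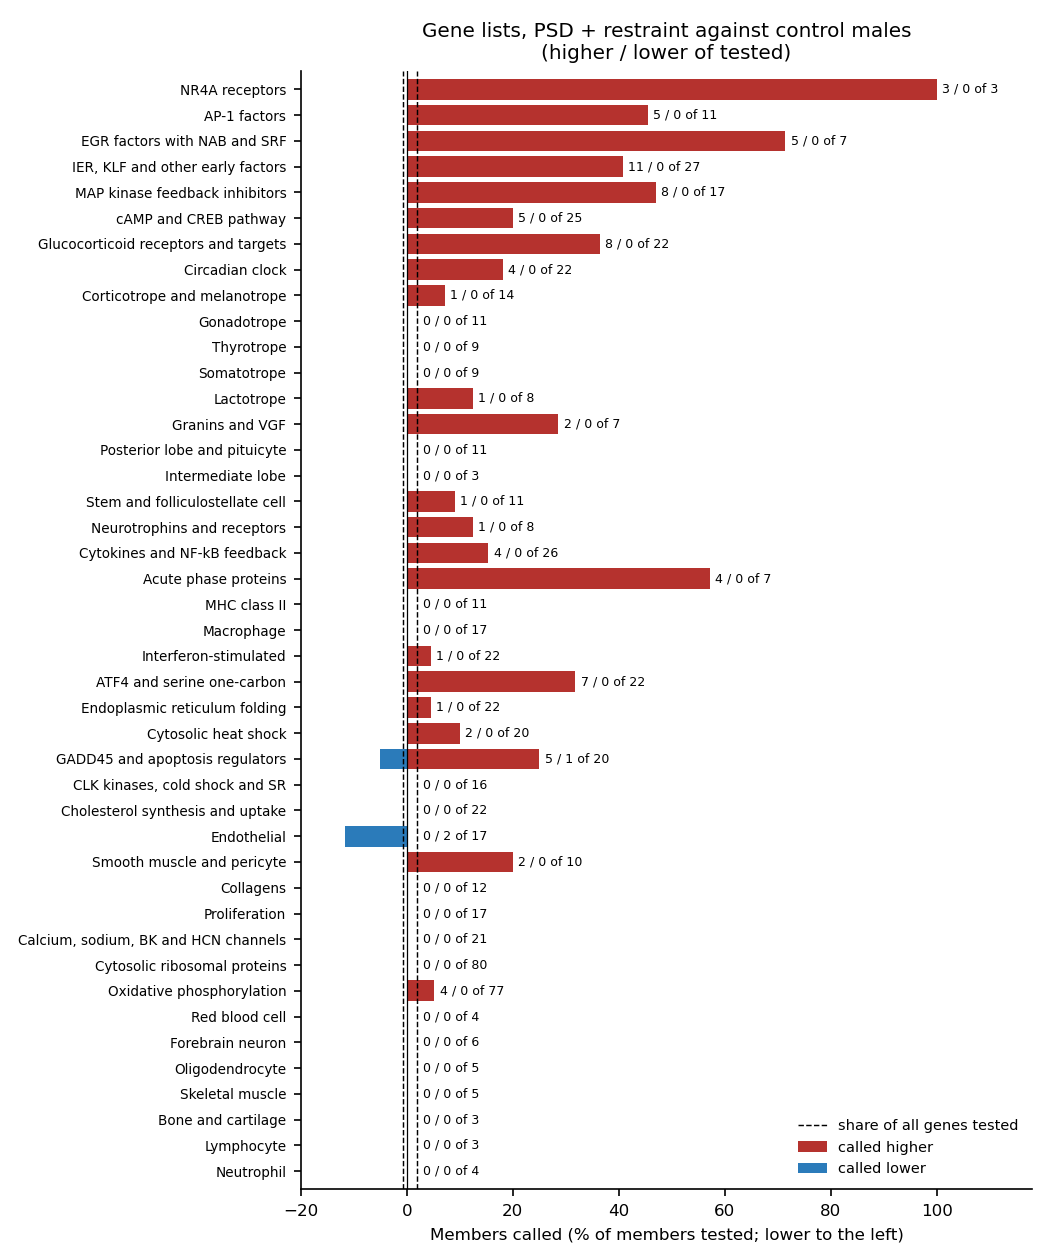
Share of the tested members of each of 43 gene lists called higher (red, to the right) or lower (blue, to the left) in PSD + restraint against control males, with the counts printed beside each bar. Dashed lines give the share over all genes tested, 1.92% higher and 0.635% lower; NR4A receptors stand at 3 of 3 and the EGR list at 5 of 7, while endothelial genes show 2 calls, both lower.

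The males given 1 treatment alone were set beside the combined group. Fam212b had a mean of 20.2 CPM in controls, 43.9 in restraint, 26.6 in PSD and 71.6 CPM in PSD + restraint males. Against PSD males it was higher by 1.43 ± 0.09 (log2, SE; adjusted p = 2.54e-05), and against restraint males by 0.71 ± 0.10 (adjusted p = 0.0883). Nr4a1 was at 744 and 844 CPM in the 2 restraint males and 172, 84.1 and 471 CPM in the 3 PSD males. The combined and restraint groups differed little for Nr4a1 (log2 difference 0.16 ± 0.57, adjusted p = 0.95), while the PSD males spread widely between it and the controls. Aldh1l2 was ordered the other way, with 11.3 and 13.5 CPM in restraint and 23.1, 27 and 26.3 CPM in PSD males.

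Aldh1l2 was the single gene of 18271 (0.00547%) called between PSD + restraint and restraint males, higher by 1.27 ± 0.14 in the combined group (adjusted p = 0.0146). The restraint group held 2 males, 1925 genes (10.5%) had an unadjusted p under 0.05, and DESeq2 called 112. Without PSD + restraint mouse 2 or restraint mouse 2 no gene was called, without PSD + restraint mouse 3 there were 2, and without restraint mouse 3, 4. Between PSD + restraint and PSD males 52 genes were called (0.285%), 47 higher (0.257%) and 5 lower (0.0274%) in the combined group, with 1883 (10.3%) at an unadjusted p under 0.05. The higher ones included Ier3 (2.6, 2.84 and 3.36 CPM in PSD males, 6.67, 10.9 and 8.06 CPM in the combined group, log2 difference 1.54, adjusted p = 0.00682) and Errfi1 (2.06, adjusted p = 0.00311). The 5 lower were Mettl17 (-0.37), Exph5 (-0.64), Fbxo5, an inhibitor of the anaphase-promoting complex (-0.76), Jrk (-0.52) and Nrde2 (-0.51). That count was 14 and 5 without PSD + restraint mouse 1 and mouse 2, 79 without mouse 3, and 3 without PSD mouse 1 or PSD mouse 2.

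The response of males and females was compared directly in a fit of all 28 mice. No gene of 18936 passed in edgeR's test of the difference in PSD + restraint response between the sexes, with 1363 genes (7.2%) at an unadjusted p under 0.05, while DESeq2 called 10. Fam212b had a log2 fold change of 1.53 in females of that fit and differed between the sexes by 0.31 ± 0.21 (male minus female, adjusted p = 0.8). For Aldh1l2 the female value was 0.68 and the difference 0.49 ± 0.31 (adjusted p = 0.78).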

How the data were processed

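Whole pituitaries of 28 mice were sequenced (TruSeq Stranded mRNA libraries, paired-end). The authors aligned reads to mm10 with MapSplice, counted them per UCSC gene model with HTSeq 0.9.1 and deposited the counts used here, raw and not pooled. Whether counting used strand is not given in the sources used here. A deposited table of normalized counts was not used. Groups came from the labels, and 0 columns were left unmapped.

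Counts of the 12 males (32594 genes) were filtered with filterByExpr and fitted with edgeR 4.0.16 (R 4.3.3; TMM, quasi-likelihood, 1 mean per treatment group), as were all 28 mice for the sex difference. P-values were Benjamini-Hochberg adjusted over all genes tested, and SE is the log2 fold change over the root of F. The procedure was also run on simulated counts with the fitted spread. They held no outlying mouse, so that run does not cover the dependence on single mice. CPM used TMM factors of all 28 libraries. Depth ranged from 16452347 to 52948531 counts in males, and precision for low genes follows it. Gene positions came from GENCODE M21 (GRCm38) and promoters from RefSeq (GRCm38.p6).

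Alternatives were DESeq2 1.42.0 and its size factors, library size scaling, other filters, a replicate block, the neurointermediate score as covariate, edgeR's robust option, the groups compared alone, and each mouse left out. Members and lists were chosen with earlier results of these data known; motifs and 3 further lists were added after the values were seen. Named genes were the called genes with the smallest p whose groups did not overlap (12 higher, 8 lower), the 5 with the largest change each way at 1 CPM or more, up to 4 called members per list, a fixed set of hormone and stress genes, and the leading calls of the other contrasts. Fosl1, Cebpd, Ddit4, Zbtb16, Phgdh, Nupr1, Dusp1, Dusp8, Slc25a25, Maff, Trp53inp1, Jun, Clock, Arntl, Atf4, Ddit3, Kdr and Pecam1 were named outside that rule, after their values were seen. Of the genes that rule named, 1 is not reported here.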

Additional observations from a re-analysis of the deposited data

Results flagged for a closer look

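Within the 4 control males, 1 mouse lay apart from the other 3, with a gap to its neighbour above Dixon's 95% critical value of the group's range, for 14 of 101 named genes tested. That value is passed by about 1 group in 20 for a gene that was not chosen by its values. The named genes were mostly chosen from these data and share the same 4 mice, so that rate is not an expectation for them. Control mouse 1 was the one apart for 10 of these 14. It was the high mouse for Nr4a2 (30.9 CPM), Nr4a3 (7.37 CPM), Fosl2 (74.9 CPM), Sik1 (23.0 CPM), Per1 (109 CPM) and Bag3 (31.9 CPM), and the low mouse for Gadd45b (7.09 CPM), Gper1 (26.4 CPM), Bcl2l11 (20.1 CPM) and Mknk2 (68.8 CPM). The same mouse had a neurointermediate lobe score of 1.17, below its 3 companions. Where it was the high mouse its level lay toward the treated males, and where it was the low mouse, away from them. It was also the lowest control for the early genes Egr3 (0.531 CPM), Egr4 (0.0849 CPM) and Arc (5.03 CPM). Without control mouse 1 the count of genes called was 528. Control mouse 2 was the high mouse for Bdnf (12.6 CPM) and Fos (27.1 CPM), control mouse 3 for Arid4a (42.5 CPM) and control mouse 4 for Gadd45a (25.1 CPM).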

How the results depend on the processing

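All 467 genes called kept their direction under each alternative that tested them. Other settings left 313 to 617 calls: DESeq2 called 617, 420 of them shared, edgeR with the neurointermediate score as covariate 509 (330 shared), library size scaling 358 and the 2 groups alone 313. The score covariate removed the calls of 12 named genes, among them Chga, Chrna6, Cp, Derl3, Nfkbia and Bpifb1. With each mouse left out the count ran from 162 to 528. Replicate numbers did not pair the mice (correlations of same-numbered deviations -0.00948, 0.129 and 0.0281). A replicate block gave 147 genes called (133 higher, 14 lower). Among males, replicate 4 occurred only in the control group, so the block also took control mouse 4 out of the comparison. Any further cause of the lower count was not tested. Against restraint males, DESeq2 called 112 genes, the score covariate 2 and the 2 groups alone 0, and leaving out mice gave 0 to 4. Against PSD males, DESeq2 called 175, library size scaling 28, the replicate block 6, the score covariate 111 and the 2 groups alone 27, and leaving out mice gave 3 to 79. For the sex difference, DESeq2 called 10, the score covariate 3 and the groups compared alone 1, and leaving out mice gave 0 to 1. Genes near 0 changed sign, none of them called. On the log2 scale the score covariate gave Tbx19 -0.0132, Cga 0.0208, Nr3c2 0.138 and Avpr1b 0.115, DESeq2 gave Avpr1b 0.00921, the replicate block gave Avpr1b 0.100 and Nr3c1 -0.0328, and library size scaling gave Fshb -0.0111. With single mice left out, Avpr1b ran from -0.178 to 0.0840, Nr3c1 from -0.122 to 0.220, Nr3c2 from -0.135 to 0.0860, Fshb from -0.0459 to 0.112 and Tshb from -0.0235 to 0.403. DESeq2 fold changes, other than for the sex difference, are shrunken toward 0.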

Other observations

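Imprinted genes, expressed from 1 parental copy, were listed after several were seen among the genes that rose, so their shares are description only. Of 38 tested, 9 were called higher (23.7%, against 1.92% of all genes) and none lower, with a median log2 fold change of 0.11. Of the 9, only Mest, Nap1l5 and Inpp5f were among the 82 genes called under all 18 alternative settings. Mest, a hydrolase of growing tissue, was at 298, 337, 449 and 409 CPM in controls and 926, 1052 and 717 CPM after PSD + restraint (log2 fold change 1.27 ± 0.14 (SE), adjusted p = 8.37e-04), and its neighbour Copg2, which overlaps it on the other strand, rose by 0.32. Nap1l5, Inpp5f and Zdbf2 rose by 0.66, 0.68 and 1.01. Nespas, Zrsr1, Peg10 and Usp29 completed the set, Nespas being antisense to Gnas (0.89, 0.36, 0.50 and 0.49). Without a stated strand setting, reads of Copg2 and Mest, and of Nespas and Gnas, cannot be told apart, so these calls are uncertain. Mest was at 692 and 674 CPM in restraint males and 502, 398 and 464 CPM in PSD males.

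Numbered zinc finger genes (Zfp followed by digits) were likewise listed after the values were seen, so their shares are description only. They made up 9 of the genes that fell, of 320 tested (2.81%, against 0.635% of all genes), while 4 rose (1.25%, against 1.92%). The list goes by name alone and takes in Zfp36, also counted among the early response genes. Zfp39, Zfp97 and Zfp386 fell by 0.72, 0.57 and 0.37 on the log2 scale. Of these, only Zfp39 was among the 82 genes called under all 18 alternative settings. Zfp97 was at 11.8, 13.1, 13.4 and 12.6 CPM in controls and 8.74, 9.06 and 7.75 CPM after treatment (adjusted p = 0.00782). Whether related genes of this family shared reads was not tested.

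Several secreted ligands were also called and are named because their values were seen. Gdnf, a neurotrophic factor, was at 0.127, 1.56, 1.49 and 1.25 CPM in controls and 9.73, 14.5 and 5.21 CPM after treatment (log2 fold change 3.21 ± 0.53 (SE), adjusted p = 0.00775), with control mouse 1 lowest. Calca, the calcitonin gene, rose from 0.552, 0.612, 0.675 and 0.6 CPM to 1.88, 1.85 and 2.54 CPM (log2 fold change 1.77 ± 0.22 (SE), adjusted p = 0.00127), and Gdf15, a stress-induced cytokine, from 0.191, 0.862, 0.32 and 1.73 CPM to 3.61, 3.55 and 2.6 CPM (log2 fold change 2.06 ± 0.50 (SE), adjusted p = 0.0455). Wnt9a fell by 0.64 (adjusted p = 0.0341). Of the ligands in this paragraph, only Calca was among the 82 genes called under all 18 alternative settings.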
